A study of Mus musculus with 18 samples.

Results

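The metabotropic glutamate receptors (mGluRs) are the G protein-coupled receptors for glutamate, and their genes carry the symbol Grm. The 6 genes Grm2, Grm3, Grm4, Grm5, Grm7 and Grm8 were followed here. They were taken by name from the receptor family, a rule that uses no measured value although the family was picked with earlier results of these data known, and they are 6 of the 38561 genes counted. All 6 passed the filter on low counts, as did 17545 genes in all. The mRNA libraries came from 3 tissues of adult mice, namely hippocampus, striatum and frontal cortex, with a C57 Bl6J background, 3 WT and 3 Pcm1-/- libraries per region and 18 in all. Pcm1 encodes a protein of the centriolar satellites, and the mutant carries a gene-trap insertion made in embryonic stem cells and crossed to C57BL/6J for at least 3 generations. WT mice were littermates, no animal was treated, and each mouse gave all 3 regions.

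Group I receptors, to which Grm5 belongs, couple to Gq and phospholipase C and sit mainly on dendrites, near the edge of the postsynaptic density. Group II (Grm2, Grm3) and group III (Grm4, Grm7, Grm8) couple to Gi/o, lower cyclic AMP and, on axon terminals, hold back transmitter release. Grm3 is also made by astrocytes, Grm4 and Grm5 are prominent in striatal projection neurons, and Grm7 sits in the active zone of many terminals and has a low affinity for glutamate.

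Each library held 24950537 to 33405081 reads on genes. Pcm1 mRNA in the mutants stood at 8.89% (hippocampus), 9.10% (frontal cortex) and 10.2% (striatum) of the WT level, and the libraries of the genotypes did not overlap. Defining markers followed the labelled tissues, with all 6 markers of striatal projection neurons and all 4 of dentate granule cells higher in every library of their region than in any other. Of 6 markers of cortical projection neurons, 3 were highest in every frontal cortex library, and the list was also high in the hippocampus. Libraries that stood apart were WT striatum replicate 3, whose 6 choroid plexus markers summed to 5986 CPM (read counts scaled to a common library size) against 31.0 to 167 CPM in the other striatal libraries, and the hippocampal libraries, where that sum ran from 222 to 6284 CPM. One library of each group held 3064 to 4393 reads on the Y chromosome and the others 67 to 112. The sequencing lane, given in the labels, differed completely between genotypes in the striatum, where the effects of genotype and lane cannot be told apart.

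In GRCm38, Grm5 (ENSMUSG00000049583) lies on chromosome 7 from 87584168 to 88134907 on the plus strand, and Grm7 (ENSMUSG00000056755) on chromosome 6 from 110645581 to 111567230 on the plus strand. Grm8 (ENSMUSG00000024211) is also on chromosome 6, from 27275119 to 28135178 on the minus strand. The other minus-strand genes are Grm2 (ENSMUSG00000023192, chromosome 9, 106643095 to 106656082), Grm3 (ENSMUSG00000003974, chromosome 5, 9485541 to 9725170) and Grm4 (ENSMUSG00000063239, chromosome 17, 27422387 to 27521403). None of them shares a chromosome with Pcm1, which is on chromosome 8. Grm7 overlaps the antisense gene Gm20387 over 130 exonic bases, and that gene had 46 to 134 reads per library against 1436 to 2574 for Grm7. Grm2 overlaps the antisense gene Gm28111 over 470 exonic bases. The libraries were stranded, but the strand setting of the counting is not given in the sources used here, so reads from these overlaps cannot be assigned with certainty.

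RefSeq promoter windows (GRCm38.p6) were matched by symbol for 4 of the 6 genes. The 3 shown belong to the genes whose frontal cortex libraries did not overlap between genotypes, as described below. Each runs 5′ to 3′ from 250 bases before the annotated start to 30 bases from it, for the start nearest the gene model, and capitals mark the GC box GGGCGG on either strand. The Grm2 window is chr9:106656080-106656359 on the minus strand, that of Grm7 is chr6:110645348-110645627 on the plus strand, and that of Grm8 is chr6:28135117-28135396 on the minus strand.
Grm2: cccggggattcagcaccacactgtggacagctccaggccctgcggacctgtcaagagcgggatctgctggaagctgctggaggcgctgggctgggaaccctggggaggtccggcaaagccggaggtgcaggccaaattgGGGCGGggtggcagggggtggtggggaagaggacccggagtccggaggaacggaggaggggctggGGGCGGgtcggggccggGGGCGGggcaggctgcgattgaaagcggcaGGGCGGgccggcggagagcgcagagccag
Grm7: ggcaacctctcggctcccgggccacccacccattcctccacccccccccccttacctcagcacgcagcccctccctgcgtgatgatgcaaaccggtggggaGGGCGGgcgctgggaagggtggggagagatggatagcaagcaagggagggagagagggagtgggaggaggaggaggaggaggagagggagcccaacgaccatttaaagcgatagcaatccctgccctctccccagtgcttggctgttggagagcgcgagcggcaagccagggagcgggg
Grm8: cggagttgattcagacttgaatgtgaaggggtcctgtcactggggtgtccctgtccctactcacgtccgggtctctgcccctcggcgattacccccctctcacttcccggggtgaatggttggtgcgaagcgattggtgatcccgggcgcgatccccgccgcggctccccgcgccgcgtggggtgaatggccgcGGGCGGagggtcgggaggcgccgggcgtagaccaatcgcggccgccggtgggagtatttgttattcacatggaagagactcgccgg
The Grm2 window holds 4 GC boxes, and the windows of Grm7 and Grm8 hold 1 each. At least 1 GC box was found in 34.7% of all 32851 promoter windows of that length, and the Grm3 window, from a gene whose frontal cortex libraries overlapped, holds 2. CG dinucleotides number 20 in the Grm2 window, 13 in that of Grm7 and 31 in that of Grm8, against a median of 6 over all windows. These matches describe the letters and are not evidence of a bound factor.

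Levels between genes were compared per length, as CPM per kb of annotated exon, and are shown in the plot of levels per length. Lengths were the merged exons of GENCODE vM21, from 3049 bases (Grm3) to 10247 bases (Grm5), while the authors mapped reads to GrCm38r73. The isoforms in use were not measured, so the order of the genes rests on these lengths. By CPM alone, Grm5 (235) was above Grm3 (138) in WT frontal cortex. Per length, Grm3 had the highest level of the 6 there, at 45.3 ± 9.02 CPM per kb (SD, n = 3 for all such values). Grm5 followed at 23.0 ± 4.54 and Grm2 at 17.1 ± 1.88 CPM per kb. The group III genes were lower in that tissue, with Grm7 at 9.84 ± 1.14, Grm4 at 4.46 ± 0.329 and Grm8 at 2.71 ± 0.313 CPM per kb. Grm3 thus made up 44.1% ± 1.58 of the summed per-length level of the 6 genes, and Grm8 2.66% ± 0.136.

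WT striatum had another order. Grm3 (51.1 ± 4.28 CPM per kb) was above Grm5 (45.2 ± 4.42 CPM per kb) in every WT library, although the means lay within their summed SD. Grm4 came next at 19.7 ± 2.56 CPM per kb. Grm7 was at 10.5 ± 0.291 and Grm8 at 1.42 ± 0.0888 CPM per kb. Grm2, ahead of all group III genes in the frontal cortex, was the lowest here at 0.496 ± 0.121 CPM per kb, or 0.391% ± 0.113 of the 6 genes.

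In WT hippocampus Grm5 led at 29.6 ± 5.07 CPM per kb, followed by Grm3 at 22.3 ± 1.25 and Grm2 at 11.0 ± 1.22 CPM per kb. Grm7 (9.17 ± 0.526), Grm4 (4.50 ± 1.16) and Grm8 (0.769 ± 0.120) completed the order. Grm7 was the steadiest gene across tissues, with WT means between 9.17 and 10.5 CPM per kb. The 6 genes summed to 77.3 ± 4.38 CPM per kb in WT hippocampus, 102 ± 16.6 in WT frontal cortex and 128 ± 9.87 in WT striatum.

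**Figure D1:**
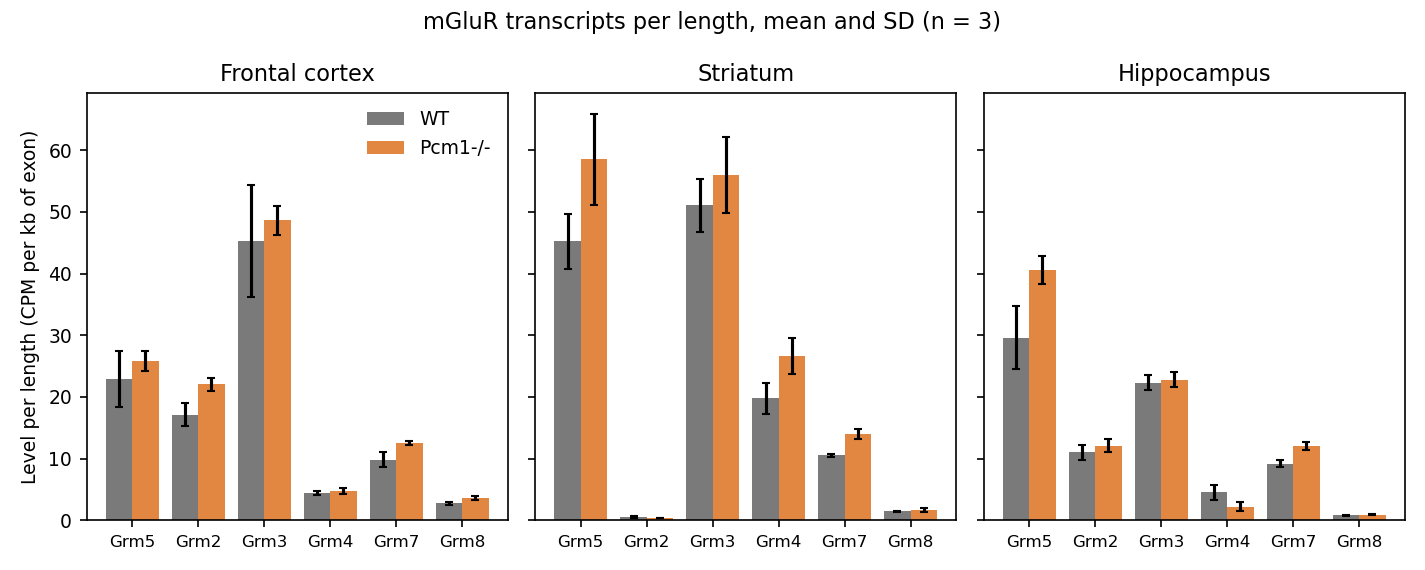
Mean per-length level (CPM per kb of exon, linear axis from 0) of the 6 mGluR genes in each region, grey for WT and orange for Pcm1-/-, with SD bars over 3 libraries. Grm3 leads in WT frontal cortex at 45.3 CPM per kb, Grm3 and Grm5 are highest in WT striatum at 51.1 and 45.2, and Grm2 is near 0 in the striatum.

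The contrasts between regions answer where each receptor is transcribed most, and the CPM values used below serve for the same gene across libraries only. In WT mice 4 of 6 genes passed an adjusted p under 0.05 between striatum and frontal cortex, against 48.3% of all genes tested. The counts were 4 of 6 between hippocampus and frontal cortex (37.7% of all genes) and 6 of 6 between hippocampus and striatum (35.9%). In Pcm1-/- mice they were 4 of 6 (51.0%), 5 of 6 (37.8%) and 6 of 6 (41.5%) in the same order. Region contrasts are from 1 edgeR fit of all libraries.

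Grm2 had the widest range across tissues. It measured 81.3, 75.9 and 93.8 CPM in the WT frontal cortex libraries, 58.0, 46.9 and 56.4 CPM in WT hippocampus and 1.91, 2.31 and 3.07 CPM in WT striatum, where only 52 to 88 reads per library fell on the gene. The 3 tissues did not overlap. The log2 difference of striatum against frontal cortex was −5.10 ± 0.15 (SE; edgeR adjusted p = 9.49e-14), that of hippocampus against frontal cortex was −0.64 ± 0.11 (adjusted p = 0.000276), and that of hippocampus against striatum was 4.46 ± 0.14 (adjusted p = 4.1e-13). Mutants had the same order, with log2 differences of −6.03, −0.86 and 5.17.

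Grm4 was highest in the striatum. WT striatum gave 132, 120 and 102 CPM, WT frontal cortex 28.8, 25.0 and 26.1 CPM and WT hippocampus 32.5, 19.1 and 29.1 CPM. The level in striatum was 4.42-fold that in frontal cortex (log2 2.15 ± 0.20 SE, edgeR adjusted p = 1.31e-07), and the cortical and hippocampal libraries of WT mice overlapped (log2 difference 0.012 ± 0.20, adjusted p = 0.970, 95% interval −0.40 to 0.43). That last difference changed sign, to −0.010 (adjusted p = 0.968), with the animal as a block. In mutants the hippocampus was below the frontal cortex by a log2 difference of −1.14 ± 0.20 (adjusted p = 0.000269).

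Grm5 was also highest in the striatum, at 515, 430 and 445 CPM in WT libraries, against 197, 221 and 287 CPM in frontal cortex and 247, 350.0 and 313 CPM in hippocampus. Striatum was 1.97-fold above frontal cortex (log2 0.98 ± 0.14 SE, edgeR adjusted p = 1.98e-05), and hippocampus was below striatum (log2 −0.61 ± 0.14, adjusted p = 0.00213). The WT hippocampal and cortical libraries overlapped and differed by a log2 of 0.37 ± 0.14 (adjusted p = 0.0468). That call was lost without frontal cortex replicate 1 (log2 0.24, adjusted p = 0.228) or 2 (0.32, 0.140) and without hippocampus replicate 2 (0.25, 0.206) or 3 (0.34, 0.116). In mutants the same contrast gave 0.65 ± 0.14 (adjusted p = 0.00134).

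Grm8 declined from frontal cortex (25.3, 24.8 and 30.4 CPM in WT) through striatum (13.9, 15.1 and 13.3 CPM) to hippocampus (6.43, 8.80 and 7.59 CPM), with no overlap. The log2 difference was −0.93 ± 0.14 (SE) for striatum against frontal cortex and −1.82 ± 0.14 for hippocampus against frontal cortex (edgeR adjusted p = 2.99e-05 and 5.54e-08). Grm3 measured 119, 126 and 170 CPM in WT frontal cortex, 168, 142 and 158 CPM in WT striatum and 63.6, 70.5 and 69.9 CPM in WT hippocampus. Its hippocampal level was below both others (log2 −1.02 ± 0.11 against frontal cortex, adjusted p = 2.92e-06, and −1.20 ± 0.11 against striatum, adjusted p = 2.46e-07). Its striatal and cortical libraries overlapped, at a log2 difference of 0.17 with a 95% interval from −0.064 to 0.41 (adjusted p = 0.220), and that contrast passed only without WT frontal cortex replicate 3 (0.35, adjusted p = 0.00607).

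Grm7 varied least between regions. WT libraries held 52.7, 55.5 and 65.5 CPM in frontal cortex, 62.6, 63.0 and 59.9 CPM in striatum and 55.3, 56.2 and 50.4 CPM in hippocampus. Only the hippocampus against the striatum passed, at a log2 of −0.20 ± 0.075 (SE, edgeR adjusted p = 0.0499), and the call was lost with DESeq2 (adjusted p = 0.0635), with DESeq2's size-factor method (0.0701) and without 5 of the 6 libraries in turn (striatum replicates 1, 2 and 3 and hippocampus replicates 1 and 3, adjusted p from 0.0513 to 0.163). The difference of striatum against frontal cortex was 0.094 (95% interval −0.063 to 0.25), and it passed without WT frontal cortex replicate 3 (0.19, adjusted p = 0.0306).

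**Figure D2:**
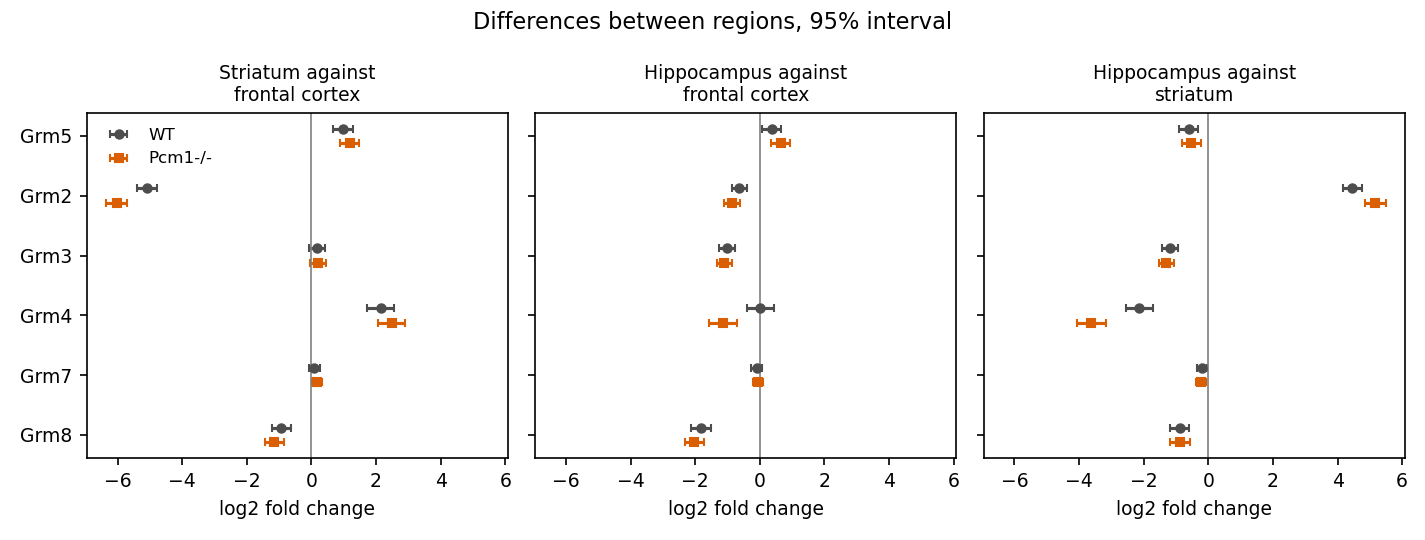
Log2 fold changes between regions with 95% intervals for each mGluR gene, grey circles for WT and orange squares for Pcm1-/-. Grm2 in striatum against frontal cortex lies farthest from 0 at −5.10 in WT and −6.03 in Pcm1-/-, whereas Grm7 lies close to 0 throughout.

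The comparison of genotypes within a region asks whether receptor transcripts change when Pcm1 is lost. At an adjusted p under 0.05 edgeR called none of the 6 genes in any region, whereas 1.74% of all genes tested were called in the frontal cortex, 0.0285% in striatum and 0.0171% in hippocampus. An unadjusted p under 0.05 was reached by 3 of 6 genes in cortex (15.3% of all genes), 4 of 6 in striatum (13.5%) and 3 of 6 in hippocampus (9.89%). DESeq2 called 3 of 6 cortical values (3.68% of all genes), 3 of 6 striatal values (2.27%) and 2 of 6 hippocampal values (1.09%). In cortex, 3 of 6 genes were higher in Pcm1-/- mice without overlap of the libraries, against 12% of all genes. The striatum had 3 of 6 higher (9.60% of all genes) and 1 lower (9.39%), and the hippocampus 2 higher (10.6%) and 1 lower (6.46%). The median log2 difference over the 6 genes was 0.25 for cortex, 0.28 for striatum and 0.16 for hippocampus, and the medians over all genes tested were −0.0066, −0.0023 and −0.00033 in that order. In bulk tissue, a change in the number of cells of a type cannot be told apart from a change in RNA per cell.

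**Figure D3:**
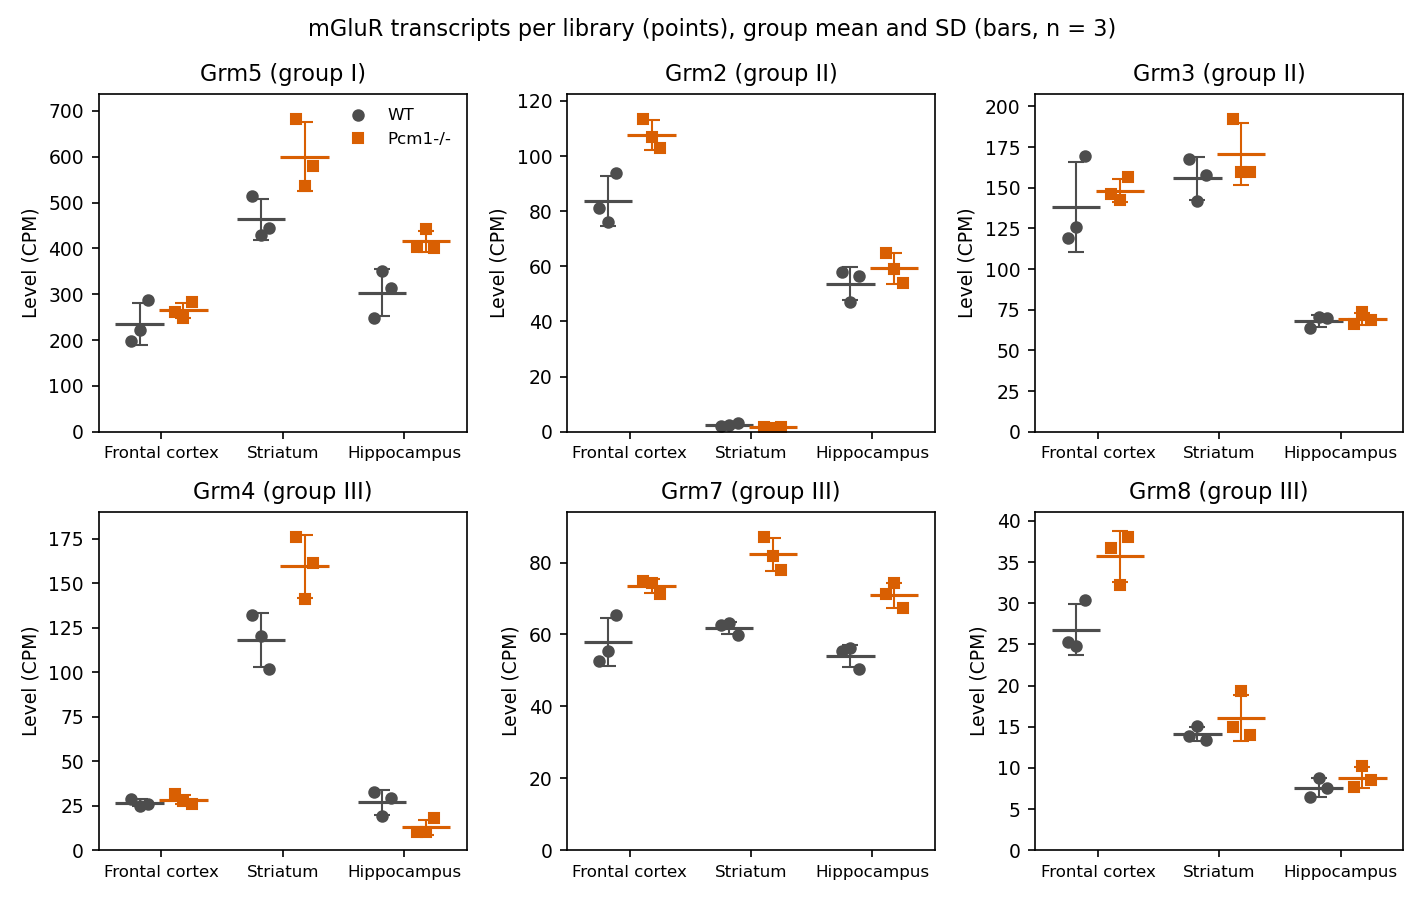
CPM of each mGluR gene in every library by region (linear axis from 0), grey circles for WT and orange squares for Pcm1-/-, with mean and SD bars over 3 libraries. Grm7 is higher in all Pcm1-/- libraries of each region, for example 71.3 to 74.8 CPM against 52.7 to 65.5 CPM in the frontal cortex.

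Grm7 was higher in every Pcm1-/- library than in every WT library of the same region in all 3 regions. It was the only 1 of the 6 genes to do so, against 1.90% of all genes tested. Mutant frontal cortex libraries held 74.8, 74.3 and 71.3 CPM beside the WT values above, a 1.26-fold difference (log2 0.34 ± 0.080 SE, 95% interval 0.15 to 0.52, edgeR adjusted p = 0.0833). Striatal mutant libraries held 87.1, 81.9 and 78.0 CPM, a 1.33-fold difference (log2 0.42 ± 0.060, interval 0.28 to 0.55, adjusted p = 0.0921). Those of the hippocampus held 71.3, 74.2 and 67.2 CPM, a 1.30-fold difference (log2 0.38 ± 0.073, interval 0.21 to 0.54, adjusted p = 0.391). The 3 estimates lay within one another's intervals, and edgeR's test of a difference between them gave an unadjusted p of 0.792. The 3 regions come from the same mice, so they are not independent repeats. By unadjusted p the gene ranked 22 of 17545 in the striatum, 40 in the hippocampus and 511 in the frontal cortex. DESeq2 called it in all 3 regions, with adjusted p of 0.0172 for cortex (range over all alternatives 0.00635 to 0.321), 0.00014 for striatum (0.00014 to 0.481) and 0.0115 for hippocampus (0.0115 to 0.919).

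Grm5, the group I receptor, did not overlap between genotypes in the striatum and the hippocampus. In mutant striatum it measured 683, 536 and 580.0 CPM against 515, 430 and 445 CPM in WT, a 1.30-fold difference (log2 0.37 ± 0.11 SE, 95% interval 0.12 to 0.63, edgeR adjusted p = 0.222). Mutant hippocampus held 402, 442 and 401 CPM against 247, 350.0 and 313 CPM, a 1.35-fold difference (log2 0.44 ± 0.13, interval 0.14 to 0.73, adjusted p = 0.405). Its frontal cortex libraries overlapped, with 262, 249 and 283 CPM in mutants against 197, 221 and 287 CPM in WT. The log2 difference there was 0.16 ± 0.12 (interval −0.12 to 0.44, edgeR adjusted p = 0.584). Without WT replicate 3, the highest WT library, it was 0.33 (adjusted p = 0.0354), and without WT replicate 1, the lowest, it was 0.050 (adjusted p = 0.912). DESeq2 called Grm5 in the striatum (adjusted p = 0.0409, range over all alternatives 0.0409 to 0.617) but not in the hippocampus (0.0674).

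The genotype difference of Grm2 had opposite signs in the frontal cortex and the striatum. Mutant libraries of the frontal cortex held 114, 107 and 103 CPM against 81.3, 75.9 and 93.8 CPM in WT, a 1.28-fold difference with no overlap (log2 0.36 ± 0.081 SE, 95% interval 0.17 to 0.54, edgeR adjusted p = 0.0707). DESeq2 called it (adjusted p = 0.00758, range over all alternatives 0.00758 to 0.296). In the striatum the mutants held 1.75, 1.46 and 1.74 CPM, from 46 to 49 reads, and WT libraries 1.91, 2.31 and 3.07 CPM. All mutant values were below all WT values there, by a log2 difference of −0.56 ± 0.22 (interval −1.06 to −0.056, adjusted p = 0.327). In the hippocampus the libraries overlapped, at 64.9, 59.0 and 53.8 CPM in mutants against 58.0, 46.9 and 56.4 CPM (log2 0.12 ± 0.11, interval −0.13 to 0.38, adjusted p = 0.732). With single libraries left out, that hippocampal difference ran from 0.026 (without WT replicate 2) to 0.18 and never passed.

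The striatal Grm2 value turned in part on WT replicate 3, the highest WT library and the one that stood apart in choroid plexus markers. Without it the log2 difference was −0.36 (adjusted p = 0.510). That library also had the highest sum of 4 thalamic neuron markers in the striatum, 108 CPM against 24.3 and 33.2 CPM in the other WT and 17.0 to 24.4 CPM in the mutant libraries. All 4 thalamic markers had a lower mean in mutant striatum and an unadjusted p under 0.05 (13.5% of all genes), with a median log2 difference of −1.98. None was called by edgeR and 1 was called by DESeq2 (2.27% of all genes). Slc17a6 and Lhx9 did not overlap between genotypes, and 9.39% of all genes were lower without overlap. Lhx9 was near the floor, at 0.33, 0.43 and 2.27 CPM in WT and 0.071, 0.16 and 0.11 CPM in mutants. The 6 markers of cortical projection neurons, none of which was at 0, summed to 110, 39.9 and 62.2 CPM in WT striatum and to 46.6, 38.3 and 47.3 CPM in the mutants, and all 6 had a lower mean in the mutants. Their order did not follow that of Grm2, which was lowest of the WT libraries in replicate 1, where Slc17a7, the vesicular transporter of cortical glutamate neurons, was highest at 63.5 CPM. Their part in the result was not tested.

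Grm3, the group II receptor shared with astrocytes, overlapped between genotypes in all 3 regions. Mutant libraries held 146, 143 and 156 CPM (cortex), 193, 159.9 and 159.9 CPM (striatum) and 66.1, 73.5 and 68.7 CPM (hippocampus). The log2 differences were 0.095 (95% interval −0.18 to 0.37), 0.14 (−0.081 to 0.35) and 0.012 (−0.16 to 0.19), with edgeR adjusted p of 0.765, 0.573 and 0.967. The 7 astrocyte markers summed to 1313 to 1660 CPM in WT and 1238 to 1378 CPM in mutant frontal cortex, which overlapped. In the striatum they summed to 1480 to 2070 CPM in WT and 1344 to 1418 CPM in mutants without overlap, with 6 of 7 lower in mean and 2 of these at an unadjusted p under 0.05 (13.5% of all genes), and in the hippocampus to 2036 to 2618 CPM and 2043 to 2065 CPM, with 5 of 7 lower. No astrocyte marker was called by edgeR, and DESeq2 called 1 as lower in the hippocampus (1.09% of all genes). The striatal difference of Grm3 ran from 0.042 (without mutant replicate 1) to 0.19 with single libraries left out. The cortical difference was 0.27 without WT replicate 3 (edgeR adjusted p = 0.0378), −0.0024 without WT replicate 1 and −0.023 with the sequencing lane as a covariate, so its sign was not stable.

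For Grm4 the genotype difference also had opposite signs, above WT in the mutant striatum and below it in the mutant hippocampus. Mutant striatum held 176, 141 and 161 CPM against 132, 120 and 102 CPM in WT, a 1.35-fold difference without overlap (log2 0.44 ± 0.11 SE, 95% interval 0.18 to 0.69, edgeR adjusted p = 0.197). Mutant hippocampus held 10.4, 10.3 and 17.8 CPM against 32.5, 19.1 and 29.1 CPM in WT, 0.473-fold and again without overlap (log2 −1.08 ± 0.27, interval −1.71 to −0.45, adjusted p = 0.391). Its frontal cortex libraries overlapped, at 31.4, 27.9 and 26.1 CPM against 28.8, 25.0 and 26.1 CPM (log2 0.087 ± 0.087, interval −0.11 to 0.28, adjusted p = 0.688), and without single libraries the log2 difference was 0.016 (without mutant replicate 1) to 0.15. DESeq2 called Grm4 in the striatum (adjusted p = 0.0231, range over all alternatives 0.0231 to 0.607) and in the hippocampus (0.00992, range 0.00992 to 0.919).

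Several marker lists moved with Grm4 in the hippocampus. The sum of the 4 thalamic neuron markers was 391, 190 and 391 CPM in the WT libraries and 93.1, 83.9 and 211 CPM in the mutants. In both measures WT replicate 2 was the lowest WT library and mutant replicate 3 the highest mutant library. All 4 had a lower mean in mutants, 3 of them at an unadjusted p under 0.05 (9.89% of all genes), none was called by edgeR or DESeq2, and none was at 0 in a library. Tcf7l2, a transcription factor of thalamic neurons, measured 108, 48.3 and 106 CPM in WT and 6.77, 6.80 and 51.0 CPM in mutant hippocampus. Prkcd, a protein kinase C of thalamic relay neurons, measured 177, 57.7 and 133 CPM against 44.1, 34.1 and 84.4 CPM. Slc17a6, a vesicular glutamate transporter, measured 83.8, 56.2 and 117 CPM against 22.0, 17.2 and 53.1 CPM, without overlap, whereas the libraries of Tcf7l2 and Prkcd overlapped. The other marker, Lhx9, had another library order, with 21.8, 27.9 and 34.6 CPM in WT and 20.2, 25.8 and 22.9 CPM in mutants, so that its lowest WT library was replicate 1 and its highest mutant library replicate 2. The 6 oligodendrocyte markers had the library order of Grm4 within each genotype, with sums of 9603, 4854 and 7930 CPM in WT and 5122, 3668 and 6002 CPM in mutants, which overlapped between genotypes. The 4 ependymal markers had that order too, at 58.7, 24.0 and 47.7 CPM in WT and 42.3, 18.3 and 49.0 CPM in mutants. The 6 choroid plexus markers summed to 2361, 222 and 4156 CPM in mutants, in the order of Grm4. In WT they summed to 6284, 2357 and 2155 CPM, in another order. The part of these lists in the Grm4 value was not tested. The hippocampal log2 difference of Grm4 lay between −1.41 and −0.92 when single libraries were left out.

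**Figure D4:**
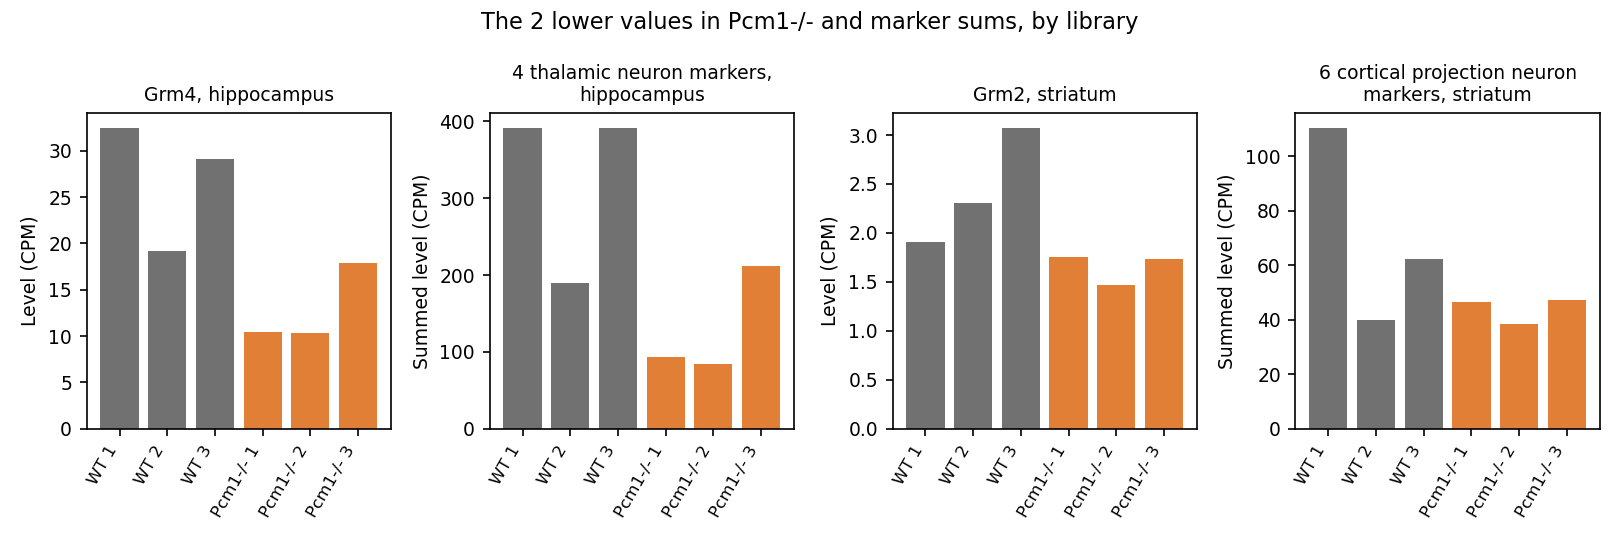
Level of Grm4 and summed level of 4 thalamic neuron markers in each hippocampal library, and level of Grm2 and summed level of 6 cortical projection neuron markers in each striatal library (all CPM, linear axes from 0), grey for WT and orange for Pcm1-/-. Grm4 and the thalamic sum are both highest within the mutants in replicate 3 (17.8 and 211 CPM), whereas Grm2 is lowest among WT striatal libraries in replicate 1, where the cortical sum is highest (110 CPM).

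Grm8 was higher without overlap in the frontal cortex alone of the 3 regions, at 36.8, 32.2 and 38.0 CPM in mutants against 25.3, 24.8 and 30.4 CPM in WT. The 1.32-fold difference (log2 0.40 ± 0.097 SE, 95% interval 0.19 to 0.62) had an edgeR adjusted p of 0.0833, and DESeq2 called it (adjusted p = 0.0142, range over all alternatives 0.0142 to 0.332). Striatal values were 15.0, 19.3 and 14.0 CPM in mutants against 13.9, 15.1 and 13.3 CPM, and hippocampal values 7.70, 10.2 and 8.47 CPM against 6.43, 8.80 and 7.59 CPM. Both sets overlapped, at log2 differences of 0.19 (interval −0.11 to 0.49, adjusted p = 0.562) and 0.19 (−0.19 to 0.57, adjusted p = 0.719). With single libraries left out, the striatal difference of Grm8 ran from 0.037 (without mutant replicate 2) to 0.28 and the hippocampal one from 0.076 to 0.30, and none of them passed.

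The lanes of the frontal cortex and the hippocampus allowed lane as a covariate. With it, the log2 differences in the frontal cortex were 0.33 for Grm2, 0.26 for Grm7 and 0.35 for Grm8 (edgeR adjusted p = 0.239, 0.239 and 0.268), while that of Grm5 was 0.031 (adjusted p = 0.941). In the hippocampus they were −1.27 for Grm4, 0.57 for Grm5 and 0.38 for Grm7 (adjusted p = 0.266 for each). Over all alternatives other than leaving out a library, hippocampal Grm2 ran from 0.0033 to 0.14 and Grm8 from 0.18 to 0.31, and none passed.

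**Figure D5:**
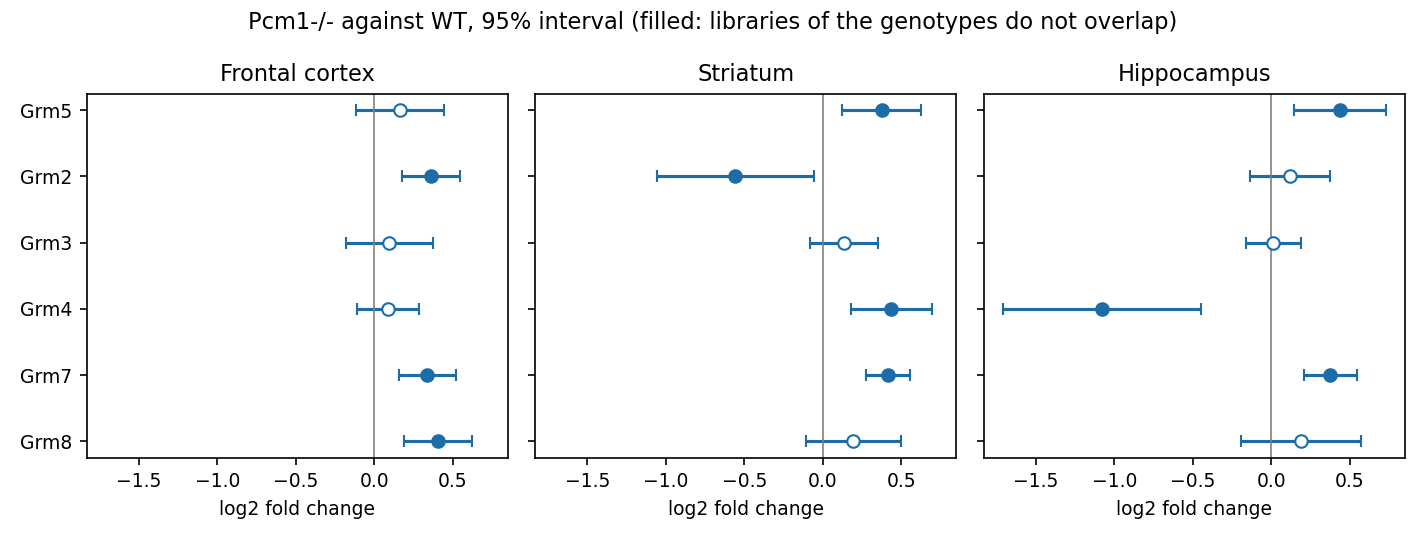
Log2 fold change of Pcm1-/- against WT with 95% interval for each mGluR gene and region, filled points where the 3 libraries of each genotype did not overlap. Grm7 is filled in all 3 regions at 0.34, 0.42 and 0.38, and the points below 0 are Grm2 in the striatum (−0.56) and Grm4 in the hippocampus (−1.08).

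Whether the genotype effect depends on the region was tested as an interaction over all 18 libraries. None of the 6 genes passed edgeR's adjusted p (0.0114% of all genes did), and Grm2 and Grm4, 2 of 6, had an unadjusted p under 0.05 (5.54% of all genes). Grm4 had an unadjusted p of 0.000152 and an adjusted p of 0.242, and Grm2 of 0.00182 and 0.449. DESeq2's likelihood ratio test called Grm4 (adjusted p = 0.000467, range over all alternatives 0.000467 to 0.247) and not Grm2 (0.0514), and it called 0.422% of all genes. For Grm3, Grm5, Grm7 and Grm8 the unadjusted interaction p lay between 0.351 and 0.804.

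Cell type markers moved with genotype beside these values. In frontal cortex the 6 markers of cortical projection neurons summed to 2575 to 2637 CPM in WT and 2950 to 3137 CPM in mutant libraries, and 5 had a higher mean, with Slc17a7 called. The 6 interneuron markers summed to 770 to 950 CPM and 944 to 1025 CPM, all with a higher mean, with Sst called. Drd1, the dopamine D1 receptor of the direct striatal pathway and a marker of striatal projection neurons, was called too. It held 10.3, 11.4 and 13.1 CPM in WT and 17.9, 19.5 and 18.4 CPM in mutant frontal cortex (log2 0.68 ± 0.099 SE, edgeR adjusted p = 0.0177). Its list had 4 of 6 members higher in mean there and 2 lower. Drd1 was also higher without overlap in striatum (log2 0.61, edgeR adjusted p = 0.123) and hippocampus (0.66, 0.391). Of all genes, 1.90% were higher without overlap in all 3 regions. The 6 microglia markers summed to 302 to 405 CPM in WT and 259 to 294 CPM in mutants, and the 6 oligodendrocyte markers to 1903 to 2544 CPM and 1712 to 1811 CPM, all with a lower mean. None of these was called by edgeR, and DESeq2 called 1 of each list as lower (3.68% of all genes). At an unadjusted p under 0.05, 5 microglia and 4 oligodendrocyte markers were lower (15.3% of all genes). In the striatum the 6 markers of striatal projection neurons, the cells that make much Grm4 and Grm5, summed to 5162 to 6128 CPM in WT and 6244 to 6675 CPM in mutants, all with a higher mean, none called by edgeR and 3 called by DESeq2 (2.27% of all genes). The striatal oligodendrocyte markers summed to 9223 to 9422 CPM in WT and 5596 to 9119 CPM in mutants without overlap, and the microglia markers to 386 to 543 CPM and 343 to 394 CPM. Both lists had all 6 members lower in mean (median log2 difference −0.38 and −0.39), none called by edgeR, 4 and 5 at an unadjusted p under 0.05 (13.5% of all genes), and 0 and 2 called by DESeq2 (2.27%). In the hippocampus, where Grm5 and Grm7 were higher, the cortical projection neuron markers summed to 1843 to 2411 CPM in WT and 2408 to 3031 CPM in mutants, 5 of 6 higher in mean and none called by edgeR or DESeq2. Most of that sum was Slc17a7, at 1307, 1743 and 1316 CPM in WT and 2004, 2212 and 1838 CPM in mutants, whereas Rorb, a transcription factor of layer IV neurons, was lower without overlap at 34.9, 28.4 and 29.3 CPM in WT and 21.9, 23.1 and 25.0 CPM in mutants (log2 −0.42, edgeR adjusted p = 0.396). All 6 hippocampal oligodendrocyte markers were lower in mean there (median log2 difference −0.53), with 1 at an unadjusted p under 0.05 (9.89% of all genes) and none called by edgeR or DESeq2. All 5 endothelial markers were lower in mean in each region, with 2 in frontal cortex, 2 in striatum and 3 in hippocampus at an unadjusted p under 0.05 (15.3%, 13.5% and 9.89% of all genes) and none called by edgeR or DESeq2. Their sums did not overlap in frontal cortex (147 to 211 CPM in WT and 133 to 140.3 CPM in mutants) or hippocampus (122 to 184 CPM and 105 to 119 CPM), and they overlapped in striatum (138 to 186 CPM and 137 to 143 CPM). No marker of these lists was at 0 in any of these libraries. Their part in the receptor values was not tested.

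The signalling partners of mGluRs were taken as a list of 46 genes, of which 13 act in the Gq path, 12 in the Gi/o path, 13 are scaffolds and partners and 8 serve desensitization. In the frontal cortex edgeR called 1 as higher in mutants and 0 as lower, against 1.74% of all genes, while an unadjusted p under 0.05 was met by 6 higher and 7 lower (15.3%) and DESeq2 called 1 higher and 2 lower (3.68%). The called gene was Kcnj3, a subunit of the potassium channel that Gi/o receptors open. It held 178, 183 and 201 CPM in WT and 253, 237 and 244 CPM in mutant frontal cortex (log2 0.38 ± 0.061 SE, adjusted p = 0.0240), with no overlap. Of the 46 genes, 23 had a log2 difference above 0 and 23 below, with a median of 0.00072. The scaffolds stood on the lower side, 11 of 13 below 0 with a median of −0.055 and none called by edgeR (3 lower at an unadjusted p under 0.05, 1 lower by DESeq2).

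In the striatum and the hippocampus edgeR called none of the 46 genes. The striatum had 5 higher and 4 lower at an unadjusted p under 0.05 (13.5% of all genes), 1 higher by DESeq2 (2.27%), and a median log2 difference of −0.0018. The hippocampus had 8 higher and 2 lower (9.89% of all genes), 2 higher by DESeq2 (1.09%), and a median of 0.089, with 34 of 46 above 0 against 8739 of all 17545 genes. Within the hippocampus the Gq path counted 10 of 13 above 0 with a median of 0.19, and the scaffolds 11 of 13 with a median of 0.10.

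Genes that handle glutamate, a list of 17, supply and clear the ligand. In the frontal cortex edgeR called 2 as higher and 0 as lower (1.74% of all genes), 4 were higher and 3 lower at an unadjusted p under 0.05 (15.3%), and DESeq2 called 2 higher (3.68%). Slc1a1, the neuronal glutamate uptake carrier, held 104, 98.5 and 99.7 CPM in WT and 125, 123 and 120 CPM in mutants (log2 0.28 ± 0.050 SE, edgeR adjusted p = 0.0361). It was also without overlap in striatum (127, 101 and 111 CPM in WT and 147, 138 and 158 CPM in mutants, adjusted p = 0.178) and hippocampus (128, 149 and 134 CPM against 171, 197 and 166 CPM, adjusted p = 0.391). Slc17a7, which loads glutamate into vesicles, held 1918, 1986 and 1922 CPM in WT and 2315, 2425 and 2282 CPM in mutants (log2 0.26 ± 0.049, adjusted p = 0.0396). Slc17a7 was without overlap in the frontal cortex as well. In the striatum none of the 17 was called by edgeR, with 1 higher and 4 lower at an unadjusted p under 0.05 (13.5% of all genes) and 1 in each direction by DESeq2 (2.27%). The hippocampus had none, with 2 higher and 3 lower (9.89%), and 1 in each direction by DESeq2 (1.09%). Median log2 differences of the list were 0.0019, −0.13 and −0.10 in the 3 regions.

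The 3 genes whose log2 CPM followed each receptor most closely over the 18 libraries were sought among 12779 genes by Pearson's r, given as a description over libraries of 3 tissues. Grm2 was followed by Syt13, a synaptotagmin (r = 0.996), Rtn4r, the Nogo receptor (0.996), and Pter (0.994). Grm4 was followed by Cacna2d2, a calcium channel subunit (0.987), Unc13c, a vesicle priming protein (0.982), and Pcp4, a calmodulin-binding protein (0.981). For Grm5 they were Casd1 (0.980), the plasma membrane calcium pump Atp2b1 (0.975) and Syt14 (0.972), and for Grm3 they were Smyd3 (0.987), 9330182L06Rik (0.986) and the kainate receptor gene Grik3 (0.984). Grm8 had Trpv6 (0.975), Pfkm (0.973) and Lamp5 (0.969). Grm7, the gene least different between regions, had lower values, with Gpatch11 at 0.910, AI429214 at 0.895 and AU040320 at 0.895.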

How the data were processed

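The 18 libraries of polyadenylated RNA were made with a stranded kit and sequenced on an Illumina HiSeq. The authors trimmed reads with Trim Galore and cutadapt, used STAR against GrCm38r73, retained uniquely placed reads and deposited raw counts per Ensembl gene from HTSeq, without normalization; versions and the strand setting are not given in the sources used here. Rows that name no gene (10.8% to 13.2% of counts) were left out. Region, genotype, replicate and lane came from the labels, positions and exon lengths from GENCODE (GRCm38).

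Genotypes were compared within each region with edgeR 4.0.16 (R 4.3.3; TMM factors, quasi-likelihood test, Benjamini-Hochberg over the 17545 genes that reached 10 counts in 1 library or more), regions and the interaction in 1 fit of all libraries. A call is an adjusted p under 0.05. CPM uses TMM factors over all libraries, and log2 CPM a prior count of 2. The steps were tested on simulated data. Alternatives were DESeq2 1.42.0 (no independent filtering), its size-factor method, other filters, 1 fit of all libraries, lane, the replicate number or the animal as a block, and leaving out each library. Tables and plots used Python 3.11.15, pandas 2.3.3, numpy 2.4.6 and matplotlib 3.10.9.

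Animal numbers in the processed files tie regions together, and replicate numbers follow them except in WT striatum, where a replicate number marks another mouse than in the other regions. Libraries of one animal correlated between regions, after removal of group means, at 0.198 in mutants and 0.267 in WT, and those of different animals at −0.0979 and −0.133. The receptors and gene lists were chosen with earlier results of these data known. Genes named are the 6 receptors, list genes called in a genotype comparison, the 3 genes most correlated with each receptor over the libraries (mean log2 CPM of at least 1), Pcm1, markers whose values touch a result, and in the closing section Trpc1, Plcb4 and Homer1, chosen after their values were seen. With 3 mice per group, precision came from the spread between libraries.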

Additional observations from a re-analysis of the deposited data

Results flagged for a closer look

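The genotype difference of Grm2 and of Grm4 had opposite directions in 2 regions with no overlap of the libraries. For Grm2, every Pcm1-/- library was above every WT library in the frontal cortex and below every WT library in the striatum, and the adjusted p of the interaction (edgeR) was 0.449. For Grm4, every Pcm1-/- library was above every WT library in the striatum and below every WT library in the hippocampus, and the adjusted p of the interaction was 0.242. Neither passed edgeR's threshold, and DESeq2 called Grm4 only (adjusted p = 0.000467 and 0.0514 for Grm4 and Grm2). Striatal Grm2 rests on 46 to 88 reads per library.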

How the results depend on the processing

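Of 120 log2 genotype differences recomputed with another test, scaling, filter, fit or covariate, 100 kept their direction and their side of the threshold, 19 newly passed it and 1 changed sign. DESeq2 passed cortical Grm2, Grm7 and Grm8 (log2 0.36, 0.33 and 0.40), striatal Grm4, Grm5 and Grm7 (0.43, 0.37 and 0.41) and hippocampal Grm4 and Grm7 (−1.09 and 0.37). It called 646, 399 and 191 genes in the 3 regions and 74 in the interaction, against 306, 5, 3 and 2 with edgeR. With no filter on low counts, Grm2, Grm7 and Grm8 passed in the frontal cortex (0.36, 0.34 and 0.41) and Grm7 in the striatum (0.42), among 544 and 65 genes called. The fit of all 18 libraries passed Grm7 in the 3 regions (0.34, 0.41 and 0.39) and Grm4 in the hippocampus (−1.06), and called 176, 54 and 205 genes. With the lane covariate, the frontal cortex had 29 calls, and Grm3 changed sign there to −0.023. For the interaction, DESeq2's size-factor method and the animal as a replicate block both left 0 genes called by edgeR (954 and 1384 genes at an unadjusted p under 0.05). The cause of these differences was not tested.

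Same-numbered WT and Pcm1-/- libraries did not share deviations in every pair (correlations 0.0428, 0.260 and 0.197 for cortex, 0.178, −0.156 and −0.269 for striatum and 0.0955, 0.507 and 0.194 for hippocampus), so the numbers were not taken as pairs; each library correlated best with its own number in the frontal cortex only. With the replicate block, Grm2, Grm7 and Grm8 passed in the frontal cortex (0.36, 0.34 and 0.41), and 665, 3 and 9 genes were called in the 3 regions. With the animal as a replicate block, the WT hippocampus against frontal cortex difference of Grm4 changed sign to −0.010, and no other region call of a receptor changed.

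Without each library in turn, frontal cortex log2 differences ran from −0.0024 to 0.27 for Grm3, 0.30 to 0.45 for Grm2, 0.36 to 0.50 for Grm8, 0.050 to 0.33 for Grm5 and 0.27 to 0.43 for Grm7, and all 5 passed without WT replicate 3. In the hippocampus Grm3 ran from −0.033 to 0.034, and Grm4 between WT hippocampus and frontal cortex from −0.14 to 0.20. Genes called ran from 11 (without Pcm1-/- replicate 1) to 825 (without WT replicate 3) for cortex, from 2 to 5 for striatum and from 1 to 11 for hippocampus. Depth limits striatal Grm2 most, at 46 to 88 reads per library.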

Other observations

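Among the listed signalling partners, 3 genes were singled out after their values were seen. Trpc1, a cation channel opened downstream of group I receptors, was higher in every Pcm1-/- library than in every WT library of its region, as were 1.90% of all genes tested and, of the other listed signalling and glutamate genes, Slc1a1. In the frontal cortex it held 31.6, 35.2 and 39.6 CPM in WT and 42.4, 40.9 and 41.1 CPM in mutants, in the striatum 45.0, 44.9 and 44.6 CPM and 57.2, 51.3 and 52.4 CPM, and in the hippocampus 29.1, 37.0 and 34.7 CPM and 46.5, 47.1 and 41.7 CPM. Its log2 differences were 0.22, 0.26 and 0.41 (edgeR adjusted p = 0.252, 0.177 and 0.391), so none passed.

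Plcb4, a phospholipase C of the Gq path, was below WT in the mutant hippocampus without overlap, as were 6.46% of all genes. It held 26.8, 27.1 and 51.6 CPM against 101, 61.5 and 81.3 CPM (log2 −1.22 ± 0.29 SE, edgeR adjusted p = 0.391). Its log2 difference was −0.53 in mutant striatum (adjusted p = 0.299) and 0.11 in mutant frontal cortex (0.431), and the libraries overlapped in both. In the hippocampus its highest mutant library was replicate 3 and its lowest WT library replicate 2, as for Grm4 and the summed thalamic neuron markers. A link between these was not tested. Homer1, the scaffold that binds group I receptors, held 113, 127 and 129 CPM in WT and 168, 160 and 152 CPM in mutant hippocampus (log2 0.36 ± 0.082 SE, adjusted p = 0.391), where Grm5 was also higher without overlap (10.6% of all genes). Its log2 difference was −0.26 in mutant frontal cortex (adjusted p = 0.403) and 0.076 in mutant striatum (adjusted p = 0.854), and the libraries overlapped in both.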
